A study of Mus musculus with 60 samples.

Results

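The 10 genes described here belong to the NRF2 pathway, the antioxidant programme run by the transcription factor NRF2. They were chosen by name (Nfe2l2, Keap1, Hmox1, Nqo1, Gclc, Gclm, Txnrd1, Srxn1, Slc7a11 and G6pdx), and all 10 were found among the 49315 genes counted. Whole blood was sequenced from 60 male CD2F1 mice, a hybrid strain, that were 5 to 6 weeks old when purchased, in 10 groups of 6. Each mouse was bled once, at the end of its study, so no mouse entered more than 1 group. BIO 300 is an oral formulation of synthetic genistein, an agonist of estrogen receptor β that is developed as a radiation countermeasure. All mice, controls included, were dosed by mouth for 6 days with 12 doses of either BIO 300 or its vehicle. The doses were 50, 100 and 200 mg/kg, which the labels call Low, Med and High. Mice given vehicle or 1 of the 3 doses were bled on Day 0, when 24 h had passed since dosing ended, and other mice on the same 4 treatments on Day 1, when 48 h had passed. The remaining groups received vehicle or 200 mg/kg BIO 300, then 9.2 Gy of total body irradiation (TBI) from cobalt at 0.6 Gy per min on Day 0, and were bled 24 h later on Day 1. Vehicle was not an untreated state, and no group was sampled before dosing. Whole blood RNA mixes all blood cells, so that fewer cells of a type and less RNA per cell cannot be told apart.

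NRF2 is encoded by Nfe2l2 and is held at low levels by KEAP1, an adaptor that presents it to a ubiquitin ligase for degradation. Oxidants and electrophiles modify KEAP1, and NRF2 then accumulates, pairs with small MAF proteins and binds antioxidant response elements near genes that make glutathione, renew thioredoxin and supply NADPH. Much of this control acts on the protein, so the mRNA of Nfe2l2 or Keap1 is not a measure of pathway activity. In blood, red cells and platelets carry large antioxidant stores of their own, and their precursors express several of the same genes.

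Upstream sequence was examined because 5 of the genes moved together on Day 1, as described further on. In the RefSeq annotation of GRCm38.p6, 8 of the 10 genes had a window of 250 bases before a transcription start; Hmox1 and Gclc are named only. The windows, 10 in all because Txnrd1 has several starts, were searched on both strands for TGACNNNGC, the core of the antioxidant response element, and TGANTCA, the core bound by AP-1 and contained in sites of NFE2-type factors. The 2 motifs did not overlap in any of these windows. Each stretch below surrounds a match, reads 5′ to 3′ on the strand of its gene, and has the match in capitals; where the match lies on the opposite strand, the capitals show its complement.
Nfe2l2: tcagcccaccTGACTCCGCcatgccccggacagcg
Gclm: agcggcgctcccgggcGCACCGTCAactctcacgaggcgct
Txnrd1: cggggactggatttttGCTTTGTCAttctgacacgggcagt
G6pdx: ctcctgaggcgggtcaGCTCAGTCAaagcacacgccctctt
Srxn1: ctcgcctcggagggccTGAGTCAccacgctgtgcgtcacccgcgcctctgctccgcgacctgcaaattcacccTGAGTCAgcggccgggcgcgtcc

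The stretches lie at chr2:75704879-75704913 on the minus strand (Nfe2l2), chr3:122245407-122245447 on the plus strand (Gclm), chr10:82859098-82859138 on the plus strand (Txnrd1), chrX:74428913-74428953 on the minus strand (G6pdx) and chr2:152105406-152105501 on the plus strand (Srxn1). TGACNNNGC began 240 bases before the start of Nfe2l2, 134 before that of Gclm, 92 before 1 start of Txnrd1 and 57 before that of G6pdx. Srxn1 was the gene with TGANTCA, at 102 and again at 45 bases before its start, and it had no TGACNNNGC in the window. Neither motif was found in the windows of Keap1, Nqo1 and Slc7a11, which says only that these letters were not there. Among 32851 windows of the same length, 10.2% held TGACNNNGC, 6.75% held TGANTCA and 0.84% held both. A match is a description of the sequence and not a measured binding site.

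Depth lay between 15099415 and 45589415 counts in a mouse (median 24877993.5). The libraries had the RNA of blood: Hbb-bs (red cells), Pf4 (platelets), S100a8 (neutrophils), Csf1r (monocytes), Cd79a (B cells) and Cd3e (T cells) were above 0 in all 60 mice. The liver gene Alb was at 0 in 22 mice but above 100 CPM in 11, and the fat gene Adipoq was above 10 CPM in 5, of which 3 were also above the Alb limit. All 11 of the mice with Alb had odd numbers. The highest Alb, 16056 CPM, was in mouse 51 of the vehicle-treated/TBI group, which also had the highest Keap1, Hmox1, Gclc and Txnrd1 of the 60 mice. Calls that changed without the mice above the Alb limit are given both ways. Of those that changed without the mice above the Adipoq limit, only some are given. The mice were separate animals, and no libraries were alike within sampling noise.

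The genes differed widely in level, given here as the median over 60 mice in CPM, counts scaled to a common depth with TMM over all mice, per kilobase of exon. Gclm, the modifier subunit of glutamate-cysteine ligase (GRCm38 chr3:122245557-122270732), was highest at 69.1 CPM per kb. Its catalytic partner Gclc (chr9:77754535-77794485), the subunit that makes the first bond of glutathione, stood at 8.23 CPM per kb. Srxn1 (chr2:152105516-152111376), sulfiredoxin, which restores over-oxidised peroxiredoxins, was the next highest at 26.2 CPM per kb. The glutathione-forming pair was thus uneven in mRNA, with far more of the modifier than of the catalytic subunit. G6pdx (chrX:74409483-74429194), the X-linked glucose-6-phosphate dehydrogenase that makes NADPH, had 12.4 CPM per kb. Nfe2l2 (chr2:75675513-75704641) had 8.65 and its repressor Keap1 (chr9:21229730-21239361) 3.02 CPM per kb. Nqo1 (chr8:107388225-107403206), a quinone reductase and a classic NRF2 target, had 5.26 CPM per kb. The lower ranks were held by Hmox1 (chr8:75093621-75100589), the inducible haem oxygenase, at 2.25 CPM per kb, and Txnrd1 (chr10:82833951-82897712), cytosolic thioredoxin reductase, at 2.15 CPM per kb. Slc7a11 (chr3:49892526-50443614), the cystine carrier that feeds glutathione synthesis, was lowest at 0.312 CPM per kb, with 26 to 456 counts in a mouse. G6pdx overlaps Ikbkg on the other strand, which had up to 1990 counts, and Keap1 overlaps the antisense gene Gm16754, which had up to 85; the strand setting of the counting is not given in the sources used here, so reads of such partners may not be separated.

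**Figure D1:**
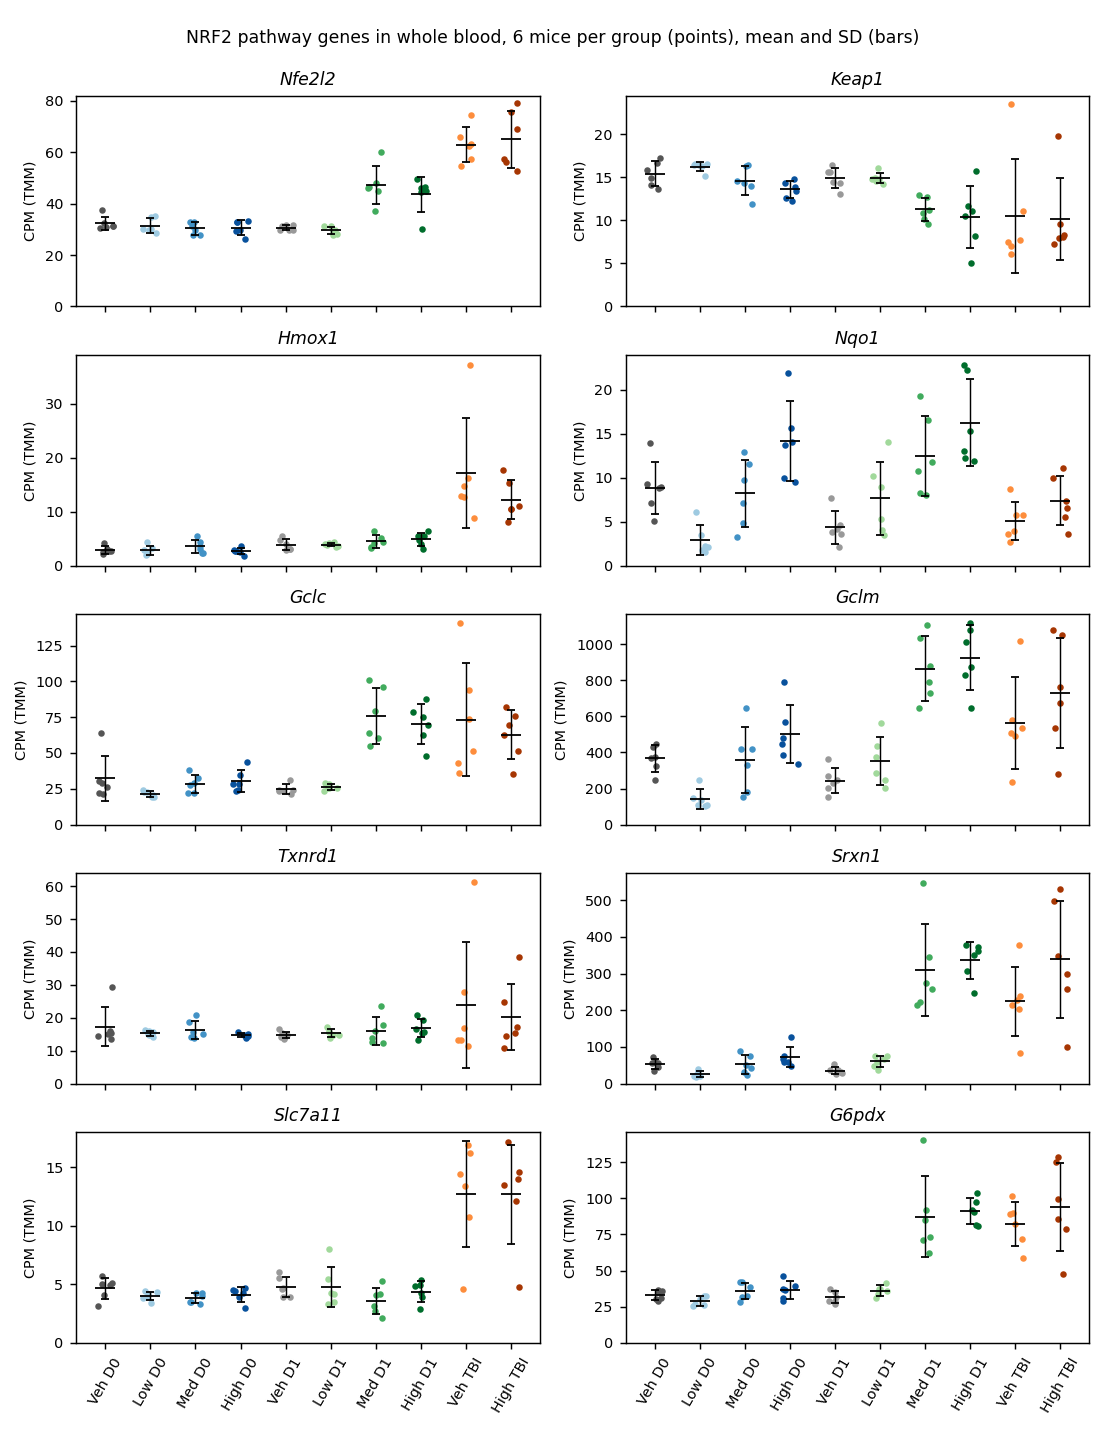
Level of each of the 10 genes in CPM (TMM over all 60 mice, linear axes from 0) in the 10 groups, with 1 point per mouse and the mean ± SD of 6 mice; Veh is vehicle, D0 and D1 are Day 0 and Day 1, and Low, Med and High are 50, 100 and 200 mg/kg. Srxn1, Gclc and G6pdx separate the 4 groups at the right (100 and 200 mg/kg on Day 1, and both TBI groups) from most other mice, while Hmox1 and Slc7a11 are high in the TBI groups, where 1 mouse each lies at 4.62 and 4.76 CPM of Slc7a11.

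Ranked by group mean, few neighbouring groups stood apart by more than the larger of their SDs. Of the 9 steps between neighbours, 2 exceeded it for Nfe2l2 and Srxn1, 1 for Keap1, Hmox1, Gclc, Gclm, Slc7a11 and G6pdx, and 0 for Nqo1 and Txnrd1. For Nfe2l2 the order was both TBI groups (65.1 and 63.0 CPM), then 100 and 200 mg/kg on Day 1 (47.2 and 43.7 CPM), then the other 6 groups between 29.6 and 32.4 CPM, so that the steps beyond the SD divided the groups into 3 tiers. The step for Hmox1 fell below the TBI groups, at 17.1 and 12.2 CPM, with all others between 2.70 and 4.84 CPM.

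On Day 0, 50 mg/kg lowered 3 of the 10 genes, and the higher doses changed none by the test used. A gene was called differentially expressed (DEG) when edgeR's quasi-likelihood test gave a Benjamini-Hochberg adjusted p under 0.05 over all genes and the absolute log2 fold change was over 1. The 3 lower genes at 50 mg/kg stood against 4.5% of all 24485 genes tested, nearly all of which, 1072 of 1103, were also lower; with library totals in place of TMM the balance turned, to 2563 higher and 307 lower. Nqo1 ran from 5.07 to 13.9 CPM (median 8.92) with vehicle and from 1.56 to 6.10 CPM (median 2.17) at 50 mg/kg, and 1 of the treated mice overlapped the controls. It fell by 1.63 on the log2 scale (SE, the standard error, 0.34, adjusted p = 0.00721). Gclm ran from 249 to 450 CPM (median 373) with vehicle and from 105 to 245 CPM (median 124) at 50 mg/kg, without overlap. It fell by 1.36 on the log2 scale (SE 0.21, adjusted p = 0.00255). Srxn1 ran from 35.5 to 73.6 CPM (median 55.4) with vehicle and from 17.2 to 39.2 CPM (median 21.9) at 50 mg/kg, and the groups overlapped. It fell by 1.06 on the log2 scale (SE 0.22, adjusted p = 0.00671), and by 0.97, under the fold limit, without the mice above the Alb limit. Its log2 fold change was also within the limit without mouse 1 alone (-0.97) or without mouse 15 alone (-0.94), which was under the Alb limit. The other 7 genes had log2 fold changes between -0.57 (Gclc) and 0.09 (Keap1).

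These decreases came with lower red cell and platelet markers and depended on the scaling. Of 8 red cell genes, 4 were lower and 0 higher, of 7 platelet genes 4 were lower and 0 higher, and of 8 fat genes 5 were lower. With library totals 3 of 8 red cell, 0 of 7 platelet and 4 of 8 fat genes were lower. Under that scaling 6 of 8 B cell, 6 of 8 T cell and 3 of 8 monocyte genes were higher. The summed red cell genes ran from 30135 to 107993 CPM (median 39936) at 50 mg/kg and from 87749 to 163384 CPM (median 134503) with vehicle. Platelet genes summed to 988 to 2398 CPM (median 1330) and 2067 to 4256 CPM (median 3019), so on the TMM scale treated mice were low on both lists. Their part in the result was not tested. Library totals, a scaling that moved the median of all genes by 0.66, gave log2 fold changes of -0.99 for Nqo1, -0.72 for Gclm and -0.41 for Srxn1, and 0 of the 10 genes were DEGs. Relative to the median of all genes, the TMM values were -1.65, -1.39 and -1.09.

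At 100 mg/kg on Day 0, 0 of the 10 genes were called, against 0% of all 24000 genes tested, with 726 genes at an unadjusted p under 0.05 and 2 DEGs by DESeq2. Log2 fold changes of the 10 lay between -0.28 (Slc7a11) and 0.30 (Hmox1). At 200 mg/kg on Day 0 the count was also 0, against 0% of 23795 genes, with 2146 genes at an unadjusted p under 0.05 and 2 DEGs by DESeq2. The largest estimate there was Nqo1, at 9.47 to 22.0 CPM (median 13.9) against 5.07 to 13.9 CPM (median 8.92) with vehicle. Its log2 fold change of 0.69 (SE 0.25) had an adjusted p of 0.546, and the groups overlapped. The 3 doses on a day share the same 6 vehicle-treated mice, and the doses were not compared directly with each other.

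On Day 1 the pattern across doses was different: at 100 and at 200 mg/kg, Srxn1, Gclm, Gclc, Nqo1 and G6pdx were all higher than with vehicle, whereas at 50 mg/kg none of the 10 was called. The 5 of 10 compare with 48.8% of all 23699 genes tested at 100 mg/kg, where 18.2% were higher and 30.6% lower. At 200 mg/kg, 47.8% of 23513 genes were called, 17.3% higher and 30.5% lower. The share of the 10 genes called was thus near the share of all genes, while their direction was upward in a comparison where most DEGs were lower. With library totals 980 genes were higher and 14732 lower for the first of these doses, and 712 and 15405 for the second. The median log2 fold change of the 10 was 1.11 for the lower of these doses and 1.08 for the higher, beside -0.38 and -0.48 over all genes.

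Srxn1 moved most of the 10. It ran from 26.5 to 53.3 CPM (median 33.5) with vehicle on Day 1, from 214 to 548 CPM (median 266) at 100 mg/kg and from 248 to 377 CPM (median 357) at 200 mg/kg. Every mouse at both doses lay far above every vehicle-treated mouse. The fold was 9.04 at 100 mg/kg (log2 3.18, SE 0.25, adjusted p = 1.1e-07) and 9.92 at 200 mg/kg (log2 3.31, SE 0.18, adjusted p = 1.77e-08).

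The glutathione-forming pair rose together at these doses with TMM, with no overlap with vehicle at either on that scale. Gclm ran from 154 to 363 CPM (median 237) with vehicle, from 645 to 1108 CPM (median 838) at 100 mg/kg and from 647 to 1117 CPM (median 944) at 200 mg/kg. Its fold was 3.68 at 100 mg/kg (log2 1.88, SE 0.20, adjusted p = 1.79e-06) and 3.99 at 200 mg/kg (log2 2.00, SE 0.20, adjusted p = 8.51e-07). Gclc ran from 21.6 to 31.4 CPM (median 23.7) with vehicle, from 55.0 to 101 CPM (median 71.6) at 100 mg/kg and from 48.1 to 87.5 CPM (median 72.2) at 200 mg/kg. On the TMM scale the lowest treated mouse was thus above the highest control for both subunits. Scaled by library totals, Gclc overlapped at both doses (26.6 to 60.1 and 26.8 to 40.4 CPM, against 27.0 to 44.1 CPM with vehicle). Gclm then overlapped at 200 mg/kg (361 to 535 CPM against 252 to 419 CPM) but not at 100 mg/kg (428 to 562 CPM). Gclc was 3.19-fold higher at 100 mg/kg (log2 1.68, SE 0.16, adjusted p = 5.8e-07) and 2.98-fold at 200 mg/kg (log2 1.58, SE 0.14, adjusted p = 2.5e-07).

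Nqo1 and G6pdx, which use and make NADPH, were the other genes that rose. Nqo1 ran from 2.14 to 7.71 CPM (median 4.00) with vehicle, from 8.03 to 19.3 CPM (median 11.2) at 100 mg/kg and from 11.9 to 22.9 CPM (median 14.2) at 200 mg/kg. Its log2 fold change was 1.57 at 100 mg/kg (SE 0.29, adjusted p = 0.000282) and 1.97 at 200 mg/kg (SE 0.27, adjusted p = 2.16e-05). G6pdx ran from 26.5 to 37.0 CPM (median 30.3) with vehicle, from 62.4 to 140 CPM (median 79.0) at 100 mg/kg and from 80.6 to 104 CPM (median 91.4) at 200 mg/kg. Neither gene overlapped between treated mice and controls. The log2 fold change of G6pdx was 1.53 at 100 mg/kg (SE 0.17, adjusted p = 3.61e-06) and 1.61 at 200 mg/kg (SE 0.11, adjusted p = 2.48e-08).

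The sensor pair and the remaining effectors were not DEGs. Nfe2l2 ran from 29.7 to 31.9 CPM (median 30.7) with vehicle, from 37.3 to 60.1 CPM (median 46.2) at 100 mg/kg and from 30.2 to 49.7 CPM (median 45.5) at 200 mg/kg. Its log2 fold changes of 0.68 (SE 0.10, adjusted p = 5.12e-05) and 0.58 (SE 0.11, adjusted p = 0.000518) passed the p threshold but not the fold limit. Keap1 had a median of 15.0 CPM with vehicle, 11.1 CPM at 100 mg/kg and 10.8 CPM at 200 mg/kg, and log2 fold changes of -0.34 and -0.44 (SE 0.11 and 0.20, adjusted p = 0.014 and 0.0696). For Hmox1, Txnrd1 and Slc7a11 the values lay between -0.36 and 0.40, and all overlapped with vehicle.

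At 50 mg/kg on Day 1, 0 of the 10 genes were called, against 0% of 24118 genes, with 4458 genes at an unadjusted p under 0.05 and 39 DEGs by DESeq2. Srxn1, at 37.7 to 76.5 CPM (median 62.8), had a log2 fold change of 0.77 (SE 0.19, adjusted p = 0.0988) and Nqo1 one of 0.82 (SE 0.35, adjusted p = 0.225). Whether a dose acted differently on the 2 days was tested by the interaction of dose and day in 24 mice. At 50 mg/kg, 3 of the 10 genes were called, against 7.69% of 26323 genes, and for all 3 the Day 1 effect was the more positive: Nqo1 by 2.47, Gclm by 1.92 and Srxn1 by 1.84 on the log2 scale. At 100 mg/kg 5 of the 10 were called, against 42% of 25908 genes, with Srxn1 at 3.22, Gclm at 1.90, Gclc at 1.85, Nqo1 at 1.67 and G6pdx at 1.42. At 200 mg/kg the same 5 were called, against 36.7% of 25702 genes, with Srxn1 at 2.88, Gclc at 1.67, Gclm at 1.55, G6pdx at 1.46 and Nqo1 at 1.30. With library totals these contrasts gave calls in both directions. In order of dose, 1 gene was positive and 2 negative, then 1 and 4, then 1 and 2. The median over all genes was then -1.05, -1.83 and -1.58. No share of all genes called stands beside these counts. The vehicle groups entered these contrasts, and between them 0 of the 10 genes were called (0% of 24375 genes, with 3007 at an unadjusted p under 0.05 and 37 DEGs by DESeq2). Nqo1 was the gene furthest apart between the vehicle groups, with medians of 8.92 CPM on Day 0 and 4.00 CPM on Day 1 and a log2 fold change of -1.03 (SE 0.29, adjusted p = 0.21).

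The upward calls on Day 1 rested on the scaling for all but 1 gene. TMM sets the scale from the bulk of the genes, library totals from the sum of all counts. Relative to TMM, totals shifted the median over all genes by -1.38 (100 mg/kg) and -1.47 (200 mg/kg). With totals, 1 gene was higher and 4 were lower at each dose: Srxn1 stayed higher, with log2 fold changes of 1.76 and 1.77, and Keap1 (-1.72 and -1.90), Hmox1 (-1.08 and -1.12), Txnrd1 (-1.19 and -1.23) and Slc7a11 (-1.74 and -1.55) were lower. Gclm (0.49 and 0.48), Nqo1 (0.18 and 0.45), Gclc (0.28 and 0.03) and G6pdx (0.12 and 0.09) kept their sign and were no longer DEGs. A change of scaling moves all genes of a mouse alike, so distances from the median of all genes stay nearly fixed by construction. Srxn1 lay 3.56 above that median at 100 mg/kg with TMM and 3.51 above it with totals, and at 200 mg/kg 3.79 and 3.73 above it.

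**Figure D2:**
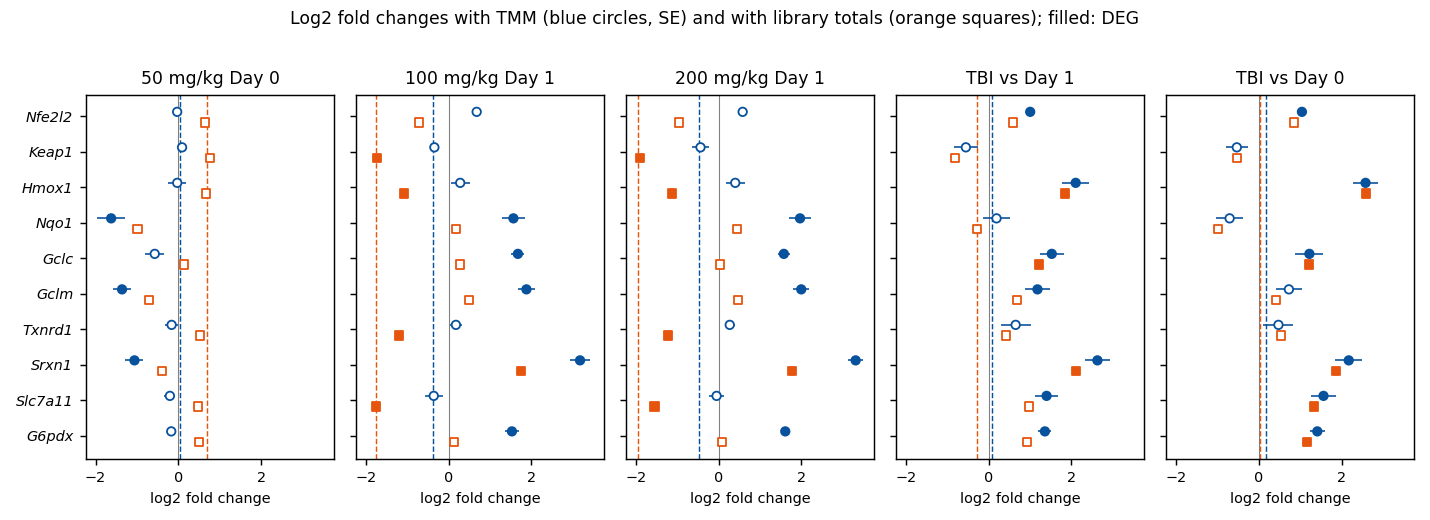
Log2 fold changes of the 10 genes in 5 comparisons, with TMM (blue circles, bars are the standard error) and with library totals (orange squares); filled symbols are DEGs and dashed lines give the median of all genes under the scaling of the same colour. At 100 and 200 mg/kg on Day 1 the squares sit to the left of the circles by about the distance between the dashed lines (-1.38 and -1.47), and Srxn1 is the gene that is a DEG to the right of 0 under both scalings.

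The makeup of the blood moved with these genes. At 100 mg/kg on Day 1, 7 of 8 red cell genes and 7 of 7 platelet genes were higher, while 8 of 8 B cell, 8 of 8 T cell and 4 of 8 monocyte genes were lower and 2 of 8 neutrophil genes higher. At 200 mg/kg, 8 of 8 red cell and 7 of 7 platelet genes were higher and 8 of 8 B cell, 8 of 8 T cell and 3 of 8 monocyte genes lower. With library totals 7 of 7 platelet genes stayed higher at both doses, whereas 2 of 8 red cell genes did. Under that scaling 0 of 8 neutrophil genes were higher and 5 lower at both doses, and 8 of 8 monocyte genes were lower. Red cell genes summed to 78734 to 117325 CPM (median 99660) with vehicle, 316893 to 585557 CPM (median 400557) at 100 mg/kg and 276578 to 624315 CPM (median 457348) at 200 mg/kg. Platelet genes summed to 1752 to 3514 CPM (median 2132) with vehicle, 13284 to 29001 CPM (median 15793) at 100 mg/kg and 12674 to 22169 CPM (median 19893) at 200 mg/kg. Neither sum overlapped with vehicle at these doses.

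Srxn1 in particular kept a nearly fixed ratio to the platelet genes in all 10 groups. This ratio, taken within each mouse and so independent of the scaling, was looked at after the values had been seen, along with the ratios of the other genes to the red cell, platelet, neutrophil and monocyte sums. Srxn1 per 1000 CPM of summed platelet genes had group medians between 15.1 and 18.9 CPM, a 1.25-fold range, while the group medians of Srxn1 itself spanned 16.3-fold. Over single mice the ratio ran from 12.9 to 24.8 CPM, and the highest was mouse 51, the mouse with the most Alb. The ratios of the other genes spanned wider ranges. Gclm per red cell sum spanned 2.18-fold and per platelet sum 2.77-fold against 7.60-fold for its level, and Nqo1 per red cell sum 2.71-fold against 6.53-fold. Hmox1 per neutrophil sum spanned 3.04-fold against 5.35-fold for its level, and Slc7a11 2.85-fold against 3.87-fold. Keap1 per monocyte sum spanned 1.95-fold against 2.15-fold. For 4 genes no ratio was narrower than the level: the narrowest was 3.60-fold against 3.34-fold for Gclc, 4.12-fold against 3.24-fold for G6pdx, 3.41-fold against 2.13-fold for Nfe2l2 and 2.39-fold against 1.13-fold for Txnrd1. Pearson's r of log2(CPM + 1) with Pf4 over the 10 group means was 0.98 for Gclc, 0.98 for G6pdx, 0.84 for Nfe2l2 and 0.57 for Txnrd1. Other markers gave r of similar or larger size. In the same order, r was 0.85, 0.86, 0.98 and 0.84 with S100a8. It was -0.99, -0.99, -0.90 and -0.68 with Cd3e, and -0.81, -0.86, -0.97 and -0.86 with Cd79a. Whether platelet and red cell RNA accounts for the changes in these genes was not tested.

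**Figure D3:**
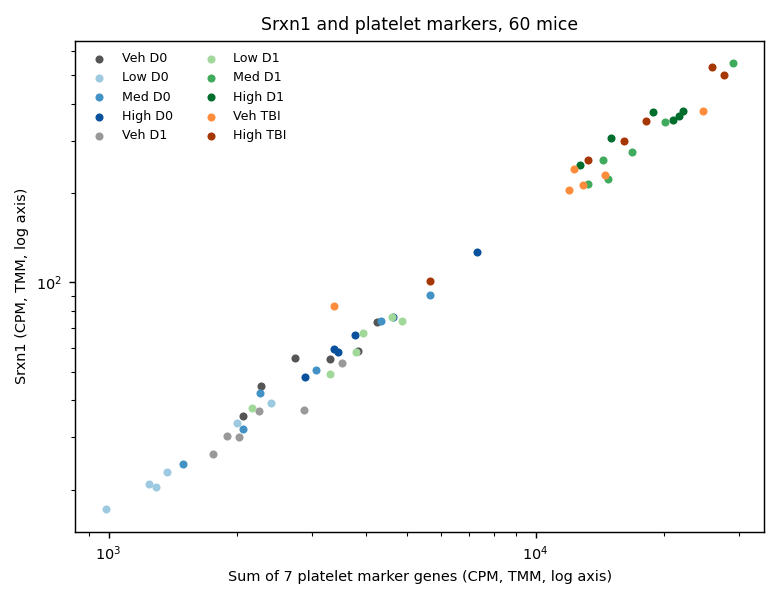
Srxn1 against the sum of 7 platelet marker genes in each of the 60 mice (both in CPM on log axes, coloured by group, abbreviated as in the plot of levels). The mice lie along 1 line from 17.2 CPM of Srxn1 at 50 mg/kg on Day 0 to 548 CPM at 100 mg/kg on Day 1, and mouse 51 of the vehicle-treated/TBI group sits above it at 83.4 CPM.

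Irradiation raised 7 of the 10 genes in vehicle-treated mice relative to vehicle-treated mice on the same day, against 36% of all 25146 genes tested (19.6% higher and 16.4% lower). With library totals the balance of all genes turned, to 3115 higher and 5667 lower. Against vehicle-treated mice on Day 0, 6 were higher, against 26.9% of 24751 genes (15.1% higher and 11.8% lower, or 2831 and 2922 genes with library totals). The 2 comparisons share the irradiated mice. Hmox1 and Slc7a11 were called here and at no dose of BIO 300 without irradiation, a difference that was not itself tested, and Nqo1 was not called. The median of the 10 was 1.27 against Day 1 and 1.13 against Day 0, beside 0.09 and 0.18 over all genes.

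Hmox1 ran from 8.76 to 37.2 CPM (median 13.8) after irradiation and from 2.94 to 5.46 CPM (median 3.50) in Day 1 controls. On the TMM scale these did not overlap. Under library totals they did, at 5.80 to 50.9 CPM after irradiation and 4.27 to 8.14 CPM in Day 1 controls. The log2 fold change of Hmox1 was 2.10 (SE 0.32, adjusted p = 0.000229) against Day 1 and 2.58 (SE 0.29, adjusted p = 6.91e-05) against Day 0. Without the mice above the Alb limit, which include the mouse at 37.2 CPM, the increase was still called, at 1.80 and 2.34. Slc7a11 ran from 4.62 to 16.9 CPM (median 13.9) after irradiation and from 3.86 to 6.06 CPM (median 4.59) in Day 1 controls, with 1 irradiated mouse, again mouse 51, within the range of the controls. The log2 fold change of Slc7a11 was 1.40 (SE 0.28, adjusted p = 0.00144) against Day 1 and 1.56 (SE 0.31, adjusted p = 0.00172) against Day 0, and 1.64 and 1.70 without the mice above the Alb limit.

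Srxn1 was again the gene with the largest or second largest change. It ran from 83.4 to 378 CPM (median 221) after irradiation, above all controls, with a log2 fold change of 2.63 (SE 0.31, adjusted p = 3.79e-05) against Day 1 and 2.17 (SE 0.33, adjusted p = 0.000342) against Day 0. G6pdx, at 58.5 to 102 CPM (median 85.7), was also above all controls, with 1.36 (SE 0.16, adjusted p = 3.3e-05) and 1.41 (SE 0.18, adjusted p = 0.000112). Nfe2l2 itself separated fully as well, at 54.6 to 74.4 CPM (median 62.9) against 29.7 to 31.9 CPM (median 30.7) on Day 1. Its log2 fold change of 1.00 (SE 0.11, adjusted p = 2e-05) lay at the fold limit, and it was under the limit without mouse 25 (0.9998) or mouse 50 (0.96). Against Day 0 it was 1.04 (SE 0.13, adjusted p = 9.32e-05), and under the limit without mouse 17 (0.996) or mouse 50 (0.90).

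The glutathione-forming pair gave less even results. Gclc ran from 35.8 to 141 CPM (median 62.9) after irradiation, with a log2 fold change of 1.52 (SE 0.29, adjusted p = 0.00104) against Day 1 and 1.22 (SE 0.34, adjusted p = 0.0135) against Day 0. Its highest value was that of mouse 51, and without this mouse the change against Day 0 was 0.97. Without all mice above the Alb limit Gclc was still called, at 1.16 and 1.03, and without those above the Adipoq limit the change against Day 0 was 0.77 (adjusted p = 0.0576). Gclm ran from 238 to 1021 CPM (median 523) and overlapped with controls; its log2 fold change was 1.18 (SE 0.31, adjusted p = 0.00734) against Day 1, 0.93 without mouse 50, and 0.73 (SE 0.31, adjusted p = 0.0879) against Day 0.

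Keap1, Txnrd1 and Nqo1 were not called after irradiation. Keap1 ran from 6.08 to 23.5 CPM (median 7.65) after irradiation and from 13.1 to 16.4 CPM (median 15.0) in Day 1 controls, and its highest value was mouse 51. Its log2 fold change was -0.55 (SE 0.29, adjusted p = 0.132) against Day 1 and -0.53 (SE 0.26, adjusted p = 0.131) against Day 0. Without the mice above the Alb limit, which were mice 49 and 51 in the irradiated group, Keap1 was a DEG, at -1.05 (adjusted p = 1.34e-05) and -1.04 (adjusted p = 1.28e-05). No share of all genes called stands beside these fits. Over the 10 group means of all mice, Keap1 had r = 0.96 with Cd3e and 0.92 with Cd79a. The part of B and T cells in this decrease was not tested. Txnrd1 ran from 11.4 to 61.1 CPM (median 15.1), and its log2 fold changes of 0.65 and 0.48 (adjusted p = 0.151 and 0.333) were -0.07 and -0.08 without the mice above the Alb limit. Nqo1, at 2.68 to 8.76 CPM (median 4.82), had 0.19 (SE 0.33, adjusted p = 0.653) against Day 1 and -0.70 (SE 0.32, adjusted p = 0.109) against Day 0, and without mouse 50 the latter was -1.04 and called.

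Blood makeup also moved with irradiation. Against Day 1 controls, 8 of 8 neutrophil and 7 of 7 platelet genes were higher, 8 of 8 B cell and 8 of 8 T cell genes were lower, 0 of 8 red cell genes and 0 of 12 liver genes were called, 2 of 8 monocyte genes were higher and 2 lower, and 3 of 8 fat genes were higher. Neutrophil genes summed to 1183 to 6670 CPM (median 4595) after irradiation and 434 to 706 CPM (median 582) in controls, and platelet genes to 3367 to 24628 CPM (median 12600) and 1752 to 3514 CPM (median 2132). The part of these cells in the result was not tested. With library totals 3 of the 10 genes were higher against Day 1 (Srxn1 at 2.12, Hmox1 at 1.85 and Gclc at 1.22) and 5 against Day 0, with Hmox1 at 2.58, Srxn1 at 1.87, Slc7a11 at 1.32, Gclc at 1.22 and G6pdx at 1.17. Of the genes called with TMM, those lost under totals kept their sign.

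BIO 300 before irradiation made no detectable difference to the 10 genes: between irradiated mice given 200 mg/kg and irradiated mice given vehicle, 0 of 10 were called, against 0% of 24916 genes, with 688 at an unadjusted p under 0.05 and 0 DEGs by DESeq2. In 1 fit of all 60 mice, 190 genes were called, 179 higher and 11 lower, with 0 of the 10 among them. The estimates lay between -0.53 (Hmox1, SE 0.34) and 0.52 (Srxn1, SE 0.39), and every gene overlapped between the groups. Srxn1 ran from 101 to 530 CPM (median 324) with 200 mg/kg and from 83.4 to 378 CPM (median 221) with vehicle. With standard errors of up to 0.47 (Txnrd1), changes of this size could not be told from none.

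Among mice given 200 mg/kg, irradiation changed 3 of the 10 genes, against 20.6% of 23610 genes tested. Hmox1 was higher, at 8.12 to 17.6 CPM (median 10.8) against 3.11 to 6.33 CPM (median 5.05), a log2 fold change of 1.27 (SE 0.25, adjusted p = 0.00223). Slc7a11 was higher as well, at 4.76 to 17.1 CPM (median 13.7) against 2.83 to 5.40 CPM (median 4.51), a log2 fold change of 1.48 (SE 0.28, adjusted p = 0.00188). Nqo1 was lower, at 3.63 to 11.1 CPM (median 6.97) against 11.9 to 22.9 CPM (median 14.2), without overlap on the TMM scale. Under library totals it overlapped, at 4.01 to 15.1 CPM against 6.65 to 9.88 CPM. With TMM Nqo1 fell by 1.23 on the log2 scale (SE 0.29, adjusted p = 0.00741). Srxn1 (-0.07), G6pdx (-0.02), Gclc (-0.24) and Gclm (-0.42) were not called with TMM and had adjusted p between 0.291 and 0.945. Scaled by library totals, their means were higher in irradiated than in unirradiated mice at this dose. These means were 283.6 and 173.3 CPM for Srxn1, 81.6 and 47.3 for G6pdx, 57.1 and 35.9 for Gclc, and 617.1 and 473.7 for Gclm. In this comparison 7 of 8 neutrophil genes and 2 of 8 monocyte genes were higher, 6 of 8 red cell, 7 of 8 B cell and 2 of 8 T cell genes were lower, and 0 of 7 platelet genes were called. The median of the B cell genes was -2.41 and that of the red cell genes -1.61. Under library totals 8 of 8 neutrophil genes were higher, and 5 of 8 B cell and 2 of 8 red cell genes lower. The part of these cells in the result was not tested. With library totals, which moved the median of all genes by 0.90, 4 genes were higher and 0 lower: Slc7a11 (2.30), Hmox1 (2.27), Nfe2l2 (1.38) and Txnrd1 (1.16). Over all genes that scaling gave 9099 higher and 223 lower.

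The effect of 200 mg/kg differed between irradiated and unirradiated mice for 5 of the 10 genes, against 29.6% of 26875 genes, and for all 5 the effect was smaller with irradiation. The differences of the log2 fold changes were -2.56 for Srxn1 (SE 0.43, adjusted p = 0.000214), -1.65 for Gclc (SE 0.38, adjusted p = 0.00225), -1.47 for Gclm (SE 0.41, adjusted p = 0.00816), -1.25 for G6pdx (SE 0.24, adjusted p = 0.000558) and -1.25 for Nqo1 (SE 0.45, adjusted p = 0.0339). These are the 5 genes that rose at 200 mg/kg on Day 1. For Hmox1 (-0.71, adjusted p = 0.193) and Slc7a11 (0.21, adjusted p = 0.7) the difference was not called. Without the mice above the Adipoq limit, Keap1 was called too, at 1.26 (adjusted p = 0.0135). With library totals Srxn1 (-1.40) was still called and lower, and Slc7a11 (1.32) and Keap1 (1.66) were called in the other direction, so 2 were positive and 1 negative under that scaling. The median over all genes was then 1.68, so Slc7a11 and Keap1 lay below the typical gene. No share of all genes called stands beside this count, and it is not read as a result about the 10 genes.

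The wider pathway was read from 47 other genes in 6 lists of regulators and targets. At 50 mg/kg on Day 0, 0 were higher and 8 lower of 46 tested, against 4.5% of all genes, including Blvrb, biliverdin reductase B (-1.58), Cat, catalase (-1.55), Abcb6, a porphyrin transporter (-1.51), Taldo1, transaldolase (-1.18), and Nfe2, the haematopoietic relative of NRF2 (-1.04). With library totals none of these 5 was called, at -0.94, -0.89, -0.88, -0.53 and -0.38 in the same order. At 100 mg/kg on Day 1, 18 of 45 were higher and 3 lower, and the counts for 200 mg/kg were 15 and 3. All genes were called at 48.8% and 47.8%, so the share of these genes was near or under the background. Library totals turned the balance, to 5 higher and 10 lower and to 3 and 14. The haem and iron list had 4 of 6 higher at both doses, with the ferritin chains Ftl1 at 2.66 and 2.84 and Fth1 at 2.40 and 2.46, and Abcb6 at 2.58 and 2.79 on the log2 scale. Of the regulators, 6 of 14 were higher and 2 lower at both doses: Nfe2 rose by 2.60 and 2.68 and the kinase Gsk3b, which marks NRF2 for degradation, by 1.64 and 1.82. Btrc, part of the ligase that acts on that mark, rose by 1.82 at 100 mg/kg, and Bach2, a B cell repressor of the same family, fell by 1.77 at 200 mg/kg. Gsr, glutathione reductase, was the 1 glutathione gene called of 9 tested, at 2.43 and 2.41. Both doses also raised 2 of 3 thioredoxin genes, Prdx6 (2.32 and 2.45) and Txn1 (1.17 and 1.01), and in the NADPH list Taldo1 (2.26 and 2.28), 1 of 3 higher genes of 5 at 100 mg/kg and the only one at 200 mg/kg. Of 8 detoxification genes, 100 mg/kg raised 2 and lowered 1, and 200 mg/kg raised 1 and lowered 1, among them Ephx1, epoxide hydrolase, which fell by 1.52 at the higher dose. With library totals the regulators turned to 1 higher and 6 lower at both doses, and 0 thioredoxin genes were higher. Txn1 changed sign (-0.22 and -0.52), and Prdx6 (0.92 at both doses), Taldo1 (0.86 and 0.74), Gsk3b (0.25 and 0.28) and Btrc (0.42) were no longer called. Gsr (1.02 and 0.87) and Fth1 (1.00 and 0.90) were called at the lower of these doses only, while Nfe2 (1.18 and 1.13), Ftl1 (1.28 and 1.29) and Abcb6 (1.18 and 1.22) were still higher, and Bach2 (-3.25) and Ephx1 (-2.95) still lower.

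After irradiation, 20 of these genes were higher and 1 lower of 45 tested against Day 1, and 13 higher and 1 lower of 46 against Day 0. Of all genes 36% and 26.9% were called, so the Day 0 count was near the background. With library totals the counts were 12 higher and 2 lower, and 9 higher and 1 lower. Osgin1, an oxidative stress gene of the detoxification list, was highest at 3.06 against Day 1, followed by the iron exporter Slc40a1 at 2.87. Gsr (2.00), Gss, glutathione synthetase (1.36), Prdx6 (1.99), Txn1 (1.88) and Pgd, the NADPH-forming partner of G6pdx (1.98), rose too. Of the regulators, Nfe2 (2.14) and the NRF2 partner Mafg (1.43) were higher, and Bach2 was the lower gene (-2.51). Against Day 0, Slc40a1 (2.65), Pgd (2.05), Txn1 (1.86), Gsr (1.76), Prdx6 (1.65) and the haem-sensing repressor Bach1 (1.23) were higher and Bach2 (-2.51) lower. Of the genes named after irradiation, Mafg (0.998 against Day 1) and Bach1 (0.99 against Day 0) were no longer called with library totals. Among mice given 200 mg/kg, irradiation raised 5 and lowered 3 of 45, against 20.6% of all genes, with Osgin1 at 3.16 and Slc40a1 at 2.15 higher and Abcb6 at -1.53 and Ftl1 at -1.42 lower. With library totals 14 were higher and 0 lower, and Abcb6 (-0.66) and Ftl1 (-0.58) were not called. In the remaining pairs of groups 0 of these genes were called.

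Genes whose pattern was most like that of a member were sought for Nfe2l2, Hmox1 and Gclm among 6738 other genes, by Pearson's r of log2(CPM + 1) over the 10 group means. Near to Nfe2l2 were Kbtbd7 and Tmub2, both with r = 0.99. Nearest to Hmox1 were Tyrobp, a signalling adaptor of myeloid and NK cells, Stard3 and Klra17, each also with r = 0.99. Gclm was matched by Hspa4l (r = 0.998), Mxi1 (r = 0.997) and Creg1 (r = 0.995). The points are means of the same libraries, so these values describe likeness only.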

How the data were processed

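Whole blood RNA was sequenced from 60 mice, grouped by the labels. The authors ran Trimmomatic 0.36, STAR 2.5.2b (GRCm38) and Subread 1.5.2 and deposited integer counts of unique gene hits, without normalization. The annotation release and strand setting are not given in the sources used here. The paper's methods describe ribosomal and globin RNA depletion, the labels poly(A) selection. The deposited result tables hold the authors' fold changes and p-values, which were not used, and normalized signal columns (counts over 1 size factor per mouse), used only as a check.

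Pairs of groups (12 mice) and interactions (4 groups) were fitted with the quasi-likelihood test of edgeR 4.0.16 (R 4.3.3, limma 3.58.1) after TMM, keeping genes with a sum of 10 counts or more, and p-values were adjusted by Benjamini-Hochberg over all genes. The thresholds are those of the study. Levels are CPM scaled over 60 mice, so ratios of levels can differ from fitted folds. The steps were tested on simulated data. Alternatives were DESeq2 1.42.0 (Wald test), other scalings and filters, 1 fit of all mice, and leaving out mice. Coordinates came from GENCODE M21, upstream sequence from RefSeq.

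The 10 genes and all lists were chosen with earlier results of these data known. Named are all 10 genes; in each other list and comparison, the 3 largest DEGs whose groups did not overlap and 1 of whose means reached 10 CPM; and the 3 genes most like Nfe2l2, Hmox1 and Gclm, of which 1 is not reported here.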

Additional observations from a re-analysis of the deposited data

Results flagged for a closer look

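Of 100 sets of 6 mice (10 genes in 10 groups), 12 had a mouse whose gap to its nearest neighbour exceeded Dixon's critical value for the group's range. Chance gives about 1 in 20 such sets, and 9 of the 12 values came from mice above the Alb limit. In vehicle-treated mice on Day 0, mouse 17 was highest in Nfe2l2 (37.6 CPM), Gclc (63.6 CPM) and Txnrd1 (29.2 CPM), with an Alb level of 6451 CPM. In the vehicle-treated/TBI group, mouse 51 was highest in Keap1 (23.5 CPM), Hmox1 (37.2 CPM) and Txnrd1 (61.1 CPM). Mouse 57, given 200 mg/kg and irradiated, was highest in its group in Keap1 (19.8 CPM), with an Alb level of 5623 CPM. Mouse 29 had the highest Gclc (31.4 CPM) with vehicle on Day 1, and mouse 43 the lowest Nfe2l2 (30.2 CPM) at 200 mg/kg on Day 1. These mice held liver RNA; its part in the values was not tested. The other 3 values came from mice under the limit: Keap1 of mouse 3 (15.2 CPM, lowest) and Gclm of mouse 2 (244.5 CPM, highest) at 50 mg/kg on Day 0, and Srxn1 of mouse 22 (126.8 CPM, highest) at 200 mg/kg on Day 0, whose platelet genes summed to 7276 CPM, the highest of its group.

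The effect of BIO 300 differed between days or with irradiation in 18 tests of single genes (edgeR's quasi-likelihood test of the interaction). Between days, the log2 fold changes differed at 50 mg/kg by 2.47 (Nqo1), 1.92 (Gclm) and 1.84 (Srxn1). At 100 mg/kg the differences were 1.67 (Nqo1), 1.85 (Gclc), 1.90 (Gclm), 3.22 (Srxn1) and 1.42 (G6pdx), and at 200 mg/kg 1.30 (Nqo1), 1.67 (Gclc), 1.55 (Gclm), 2.88 (Srxn1) and 1.46 (G6pdx). Between irradiated and unirradiated mice at 200 mg/kg they were -1.25 (Nqo1), -1.65 (Gclc), -1.47 (Gclm), -2.56 (Srxn1) and -1.25 (G6pdx). With library totals the signs of Srxn1 held in all 4 tests, while G6pdx at 100 mg/kg (-0.07) and Nqo1 with irradiation (0.05) changed sign. Between days, that scaling left 1 positive call for each dose, beside 2, 4 and 2 negative calls in order of dose. Red cell and platelet genes moved in the same tests: 7 of 7 platelet genes were called in each, positive between days and negative with irradiation. With library totals 0 of 7 were called at 50 mg/kg between days, and 7 of 7 still in the other tests.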

How the results depend on the processing

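No paired analysis was possible because each mouse was bled once and the groups share no mouse numbers. Of 2070 log2 fold changes of single genes under the alternatives, 1955 kept their direction and side of the threshold, and scaling accounted for the 9 that reversed. With library totals, Hmox1 became -1.08 and -1.12 and Txnrd1 -1.19 and -1.23 at 100 and 200 mg/kg on Day 1. For the interaction at 100 mg/kg, Txnrd1 became -1.29 (-1.05 with totals less the 20 most counted genes) and G6pdx -0.065; at 200 mg/kg, Slc7a11 became -1.14, and for irradiation Nqo1 0.045. Library totals called 0 of the 10 genes at 50 mg/kg on Day 0, 3 for TBI against Day 1, 3 for the interaction at 200 mg/kg by day and 3 for that with TBI. Totals less the 20 most counted genes called 1, 3, 2 and 3 of them, and 3 each at 100 and 200 mg/kg on Day 1. At 50 mg/kg on Day 0, library totals called 2870 and totals less the 20 genes 1236 of all 24485 genes. For the other comparisons no share of all genes stands beside these counts, so they are not read as a result about the 10 genes. DESeq2's Wald test called 1 gene between the vehicle groups, Nqo1 at -1.05. The scaling accounts for these changes by construction, while the cause of the DESeq2 call was not tested. DESeq2 size factors and filterByExpr changed 0 of 150 single-gene values each, no filter 2, 1 fit of all mice 1, leaving out mice over the Alb limit 3 and over the Adipoq limit 4. With 1 mouse left out at a time, 711 values kept their side, 8 lost a call and 1 gained one. Slc7a11 and Hmox1, with as few as 26 and 29 counts in a mouse, are the least precisely counted.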
